A study of Mus musculus with 3 samples.

Results

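Regional homeobox factors are the transcription factors that divide the embryonic nervous system along its length and from its dorsal to its ventral side. They were followed here on 3 expression arrays of neurospheres, and 107 of the 22180 genes with a named probe set belonged to them. The members were chosen by gene symbol and not by signal, though with earlier results of these data known. They came from the Emx, Otx, sine oculis (Six2 to Six6), Lhx, Lmx1, Isl, Pax, Nkx, Irx, Pou, Meis and Pbx families. The 4 Hox clusters were included too. The members comprised 51 genes of the families from Emx to Irx, 37 Hox entries, 13 Pou genes and 6 genes of Meis and Pbx. The symbols also took in 3 antisense RNAs (Six3os1, Pax6os1 and Hoxd3os1) and Pou2af1, a coactivator of Pou proteins without a homeobox, so that 103 members were left without these 4. Pou5f1-rs4 is annotated as a transcribed pseudogene. Some Pax genes carry a paired box with no complete homeobox. Another 5 matching symbols, among them Hoxa11 and Hoxd4, stood only on probe sets that carry several symbols and were not analysed here.

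All 3 arrays belong to 1 group. The RNA, total and biotin-labelled, came from neurospheres, suspended colonies of neural precursors that were grown from the V-SVZ (ventricular-subventricular zone), a germinal layer beside the lateral ventricles. The pups were wild-type CD1 mice labelled as postnatal day 8, and the growth protocol gives day 7 or 8. Cells were plated at 10 cells per microlitre and grown for 7 days with 10 ng/ml FGF, 20 ng/ml EGF, B27 and heparin, and each pup was cultured on its own. The sources used here do not say whether an array stands for 1 pup, so the spread between the arrays may be technical. Neurospheres are a selected culture of dividing precursors and their progeny, and the array averages over all cells of a sphere. Fewer cells of a type and less RNA per cell therefore cannot be told apart. The labelled cell type was checked with its markers. All 7 measured markers of neural stem and precursor cells were above the reference level defined below, against 59.1% of all genes. Their mean log2 signals ran from 8.50 (Nes) to 13.73 (Fabp7). Markers of other cells near the ventricle were checked as well. For endothelium 0 of 5 were called by limma, also at an unadjusted p under 0.05, and for meninges 2 of 6. Of microglial markers 1 of 4 was called, Cx3cr1 (6.66). Of ependymal markers 2 of 4 were called, Foxj1 (7.86) and Ccdc153 (6.59), a share near the 59.1% of all genes. The part of these cells in the signals of the members was not tested.

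These families are known for their order along the neural axis. Emx, Otx, Six3 and Lhx2 mark the forebrain, Irx, Lmx1 and several Pax and Lhx genes the diencephalon, midbrain and hindbrain, and Hox genes the hindbrain and spinal cord in the order of their position in the clusters. Pax6, Nkx and Isl genes divide the dorsal from the ventral side, Pou genes act in precursors and young neurons, and Meis and Pbx proteins bind DNA beside Hox and other homeodomain proteins. The V-SVZ lies in the forebrain, and its stem cells are known to keep regional differences between the dorsal, lateral and ventral walls.

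Promoter sequences are shown for 3 pairs that the results turn on, each from the RefSeq tables for GRCm38.p6 and in lower case, with every CG dinucleotide in capitals. Emx2 (chr19:59458440-59458739, plus strand) and Emx1 (chr6:85187681-85187980, plus strand) are shown because they are close relatives of which 1 was detected.
Emx2: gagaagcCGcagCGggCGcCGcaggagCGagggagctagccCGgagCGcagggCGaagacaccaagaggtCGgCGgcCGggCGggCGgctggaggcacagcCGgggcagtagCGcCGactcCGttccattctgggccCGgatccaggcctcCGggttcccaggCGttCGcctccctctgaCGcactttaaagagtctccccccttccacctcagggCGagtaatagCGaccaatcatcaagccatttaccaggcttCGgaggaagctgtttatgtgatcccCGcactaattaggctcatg
Emx1: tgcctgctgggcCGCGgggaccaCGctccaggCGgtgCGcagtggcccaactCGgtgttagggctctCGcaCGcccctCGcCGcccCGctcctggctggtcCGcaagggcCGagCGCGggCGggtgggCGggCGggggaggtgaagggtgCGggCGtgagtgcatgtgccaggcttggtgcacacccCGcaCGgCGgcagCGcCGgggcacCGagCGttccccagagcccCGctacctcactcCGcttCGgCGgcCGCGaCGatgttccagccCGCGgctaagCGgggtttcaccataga
Six3 (chr17:85620584-85620883, plus strand) and its antisense neighbour Six3os1 (chr17:85618347-85618646, minus strand) are shown because both were detected and their starts face away from each other.
Six3: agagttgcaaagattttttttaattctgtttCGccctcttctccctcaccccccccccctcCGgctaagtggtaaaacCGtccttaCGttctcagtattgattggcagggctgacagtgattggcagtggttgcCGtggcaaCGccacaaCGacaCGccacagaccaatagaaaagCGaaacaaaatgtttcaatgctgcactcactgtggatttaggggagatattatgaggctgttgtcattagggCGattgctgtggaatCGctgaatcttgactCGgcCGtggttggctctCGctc
Six3os1: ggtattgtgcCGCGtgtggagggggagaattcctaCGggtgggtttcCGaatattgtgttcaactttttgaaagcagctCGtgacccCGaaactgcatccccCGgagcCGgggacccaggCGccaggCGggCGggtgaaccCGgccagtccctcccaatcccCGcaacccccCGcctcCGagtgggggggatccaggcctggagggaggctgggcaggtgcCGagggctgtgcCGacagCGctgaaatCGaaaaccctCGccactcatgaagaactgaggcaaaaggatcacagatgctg
Hoxd10 (chr2:74691641-74691940, plus strand) and Hoxd9 (chr2:74697513-74697812, plus strand) are shown because they are adjacent in the Hoxd cluster and lay on opposite sides of the reference level.
Hoxd10: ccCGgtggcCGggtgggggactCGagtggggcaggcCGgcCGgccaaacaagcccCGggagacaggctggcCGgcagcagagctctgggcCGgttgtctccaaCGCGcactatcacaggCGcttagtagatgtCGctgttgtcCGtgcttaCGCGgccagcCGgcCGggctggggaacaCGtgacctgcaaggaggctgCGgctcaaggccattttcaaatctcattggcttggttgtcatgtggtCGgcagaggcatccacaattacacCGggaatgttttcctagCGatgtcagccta
Hoxd9: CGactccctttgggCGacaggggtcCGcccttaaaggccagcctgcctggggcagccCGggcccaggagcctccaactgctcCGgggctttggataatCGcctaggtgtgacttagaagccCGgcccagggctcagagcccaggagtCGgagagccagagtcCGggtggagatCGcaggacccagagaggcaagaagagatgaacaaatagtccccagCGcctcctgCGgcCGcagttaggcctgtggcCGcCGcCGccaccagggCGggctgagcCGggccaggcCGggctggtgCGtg

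The CG counts were 26 for Emx2 and 37 for Emx1, 14 for Six3 and 20 for Six3os1, and 22 for Hoxd10 and 20 for Hoxd9. The detected gene had the lower CG count in the Emx pair and the higher one in the Hoxd pair. Promoter windows of 300 bases were found for 77 of the 107 members, taking the first listed start of a gene. Their median CG count was 17, with a range from 4 to 57, against a median of 7 over all 27025 promoters in the table. It was 20 over 31 members detected and 13 over 46 members that were not, as a description of the windows at hand. The homeodomain core TAATTA was in 4 of 77 member windows, including Emx2 and Otx2, which is 5.19% against 5.31% of all promoters. The Meis motif TGACAG, searched like the others on both strands, was in 15 of 77, including Six3 and Pou3f3, which is 19.5% against 19.3%. The Pou octamer ATGCAAAT was in 0 of 77, against 1.75% of all promoters. None of these matches shows a binding site, and a missing match says only that the letters are not in the window.

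With no second group, each signal was compared with what genes taken to be silent in brain give on that array. This reference level, the 95th percentile over 1400 probe sets for the olfactory and vomeronasal receptors of the nose, was 5.63, 5.53 and 5.71 on the log2 scale on arrays 1, 2 and 3. A gene was called above the level by limma's one-sided moderated test with a Benjamini-Hochberg adjusted p under 0.05 over all 22180 genes. The test gave all genes of like signal 1 shared spread, so the lowest mean called was 5.77 and the highest mean not called was also 5.77. A call therefore amounts to a mean about 0.15 log2 units over the level, and p-values far below the threshold are left out. The median signals of the whole arrays were 5.87, 5.85 and 5.86. Values are log2 signals given as mean ± SD with n = 3. Signals of different genes cannot be ranked as amounts of RNA, because probe sets bind with different strength. The same holds for distances from the reference level, which are each mean less 1 shared value, so families are set side by side by their counts of calls, and their median distances are given as a description of these probe sets only.

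Detection was uneven across the families. Of the 107 members, 36 (33.6%) were called above the reference level, against 59.1% of all genes tested. The share was 3 of 37 for Hox (8.11%), 22 of 51 for the families from Emx to Irx (43.1%), 5 of 13 for Pou (38.5%) and 6 of 6 for Meis and Pbx. The median distance from the reference level was -0.55 log2 units for Hox, 0.04 for the families from Emx to Irx, 0.07 for Pou and 2.55 for Meis and Pbx, against 0.76 over all genes. Among receptor genes, which set the level, 54 of 1390 were called, and 7 lay over 1 log2 unit above it. Silence of all receptors in these cells was therefore assumed and not shown. These family shares were not tested against each other. The counts of single families and of marker lists below stand beside the same 59.1% of all genes.

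**Figure D1:**
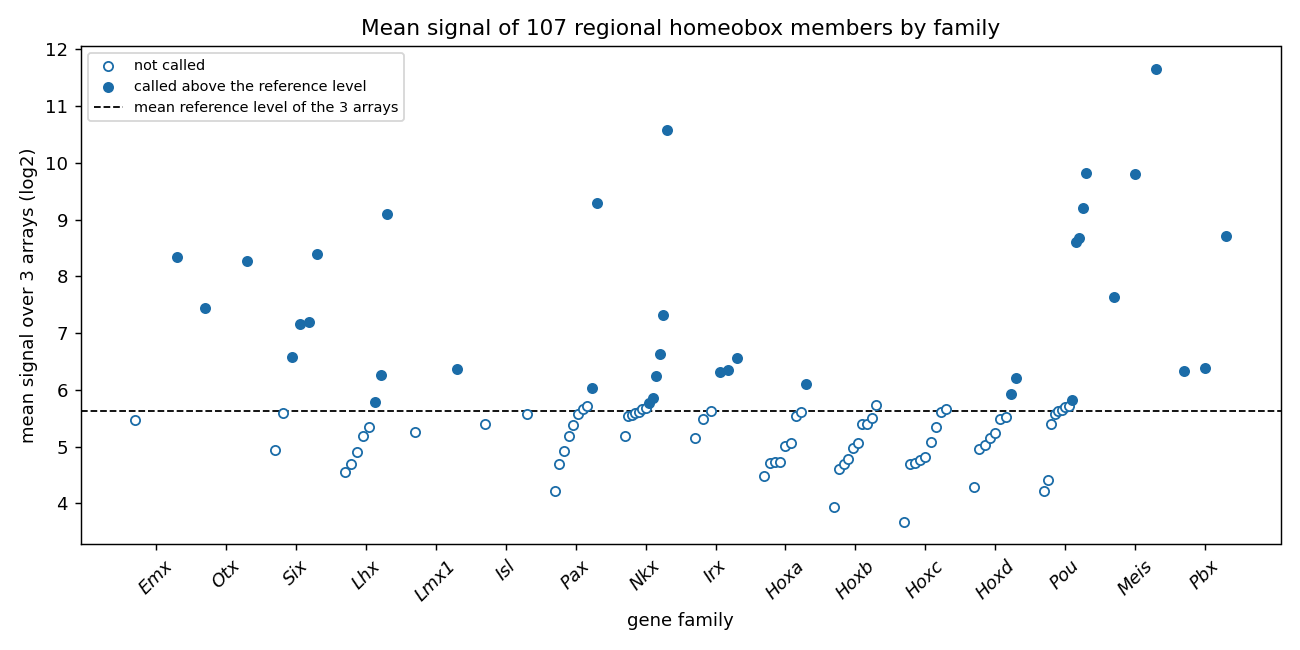
Mean log2 signal over 3 arrays (vertical axis) of each member, by gene family (horizontal axis), with filled points for members called above the reference level and open points for the others; the dashed line is the mean reference level of the arrays, 5.63. Meis, Pbx and Otx lie wholly above the line, and 3 filled points stand in the Hox clusters.

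Hox had the smallest share above the level on each array, and Meis and Pbx the largest. Of the 37 Hox entries, 6, 6 and 5 exceeded the reference level of arrays 1, 2 and 3. Of the 51 members from Emx to Irx it was 29, 27 and 28, of the 13 Pou genes 9, 9 and 7, and of the 6 Meis and Pbx genes 6 on every array. Above the level on all 3 arrays were 39 members (36.4%), against 59.6% of all genes. A distance over 1 log2 unit was seen for 19 members (17.8%), against 47.5% of all genes, and over 2 log2 units for 14 members (13.1%), against 35.6%. Hox contributed 0 genes to either count.

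Among the forebrain factors, Emx2, which patterns the dorsal telencephalon, had log2 signals of 8.36, 8.46 and 8.19 on arrays 1, 2 and 3 (8.34 ± 0.14). All 3 values lay over 2 log2 units above their reference levels. Its relative Emx1, a factor of the dorsal telencephalon and cortical projection neurons, had 5.47 on every array and lay below the level on each. Otx1, which acts in cortex and midbrain, had 7.44 on every array, and Otx2, needed for the anterior head and later for choroid plexus, had 8.27 on every array. Both Otx genes were therefore detected. Of 6 measured choroid plexus markers, 1 was called, Ttr at 6.20. The other 5 ran from 4.14 (Clic6) to 5.68 (Aqp1), and the part of choroid plexus cells in the Otx2 signal was not tested.

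Of the sine oculis relatives, with the antisense RNA Six3os1 counted in, 4 of 6 members (66.7%) were called, against 59.1% of all genes. Six3, which represses posterior fates in the anterior forebrain, had 7.21, 7.21 and 7.18 (7.20 ± 0.019). Six3os1, the antisense RNA beside it, had 8.41, 8.46 and 8.34 (8.40 ± 0.059). Both were above the reference level on each array. Which strand each probe set reads was not checked, since no probe sequences were used here. Six5, a factor expressed in many tissues, had 7.11, 7.24 and 7.11, and Six4, known from muscle and sensory placodes, had 6.69, 6.69 and 6.36. Six6, an eye and hypothalamus factor closely related to Six3, had 5.53, 5.51 and 5.73 and exceeded the level on array 3 alone, so it was not called. Six2, a factor of kidney progenitors and the neighbour of Six3 on chromosome 17, had 4.94 on every array.

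LIM homeodomain genes were detected in 3 of 8 cases (37.5%), against 59.1% of all genes. Lhx2, a selector gene of cortex and eye, had 9.09 on every array, 3.47 log2 units above the mean level. Lhx6, a factor of interneurons from the medial ganglionic eminence, had 6.26 on every array. Lhx4, a factor of pituitary and motor neurons, had 5.91, 5.56 and 5.91 and lay only 0.17 log2 units above (limma adjusted p = 0.0238). When replicate 1 was left out the adjusted p was 0.389, without replicate 3 it was 0.0926 and with each gene's own spread 0.134, so the call ended in all 3. The others were not called and ran from 4.56 (Lhx8, a cholinergic neuron factor) to 5.34 (Lhx3), with Lhx1 at 4.91, Lhx5 at 4.70 and Lhx9 at 5.19.

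The remaining LIM genes split within their families. Lmx1b, which acts in serotonergic and dopaminergic neurons and the midbrain organiser, had 6.36, 6.24 and 6.49 (6.36 ± 0.13) and was called, while Lmx1a, a floor plate and roof plate factor, had 5.34, 5.04 and 5.39 and was not. Isl1, a factor of striatal and motor neurons, had 5.58 on every array and exceeded only the level of array 2, and Isl2 had 5.41 on every array. In the Isl family 0 of 2 genes were called by limma, also at an unadjusted p under 0.05 and with each gene's own spread. With the 90th percentile of the receptors as the reference level, 2 of 2 were called, against 66.7% of all genes. Of 4 measured markers of striatal and septal neurons, Gad2 (7.76 ± 0.071), an enzyme of GABA synthesis, was called, and Drd1 (3.78), Drd2 (5.51) and Chat (5.03) were not.

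Paired box entries, which include the antisense RNA Pax6os1, were mostly not called, with 2 of 10 (20%) called, against 59.1% of all genes. Pax6, a regulator of dorsal precursors, eye and olfactory neurons, had 9.27, 9.35 and 9.27 (9.30 ± 0.045). Pax6os1, an RNA on the other strand beside Pax6, had 4.22 on every array. Pax5, a midbrain-hindbrain boundary and B cell factor, had 5.87, 5.87 and 6.34 (6.03 ± 0.27) and was called, with the value on array 3 standing above the other two. With its own spread its adjusted p was 0.0619. Of 3 measured B cell markers 0 were called by limma, with Cd79a at 5.19, Cd79b at 5.06 and Ms4a1 at 4.11. Pou2af1, a B cell coactivator, had 5.68, 5.58 and 5.70 and was not called.

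The other Pax genes included those of the midbrain, the dorsal neural tube and muscle. Pax2, a midbrain and kidney factor, had 5.18 ± 0.19 and Pax8, a thyroid and kidney factor, had 4.70 ± 0.095. Pax3, of dorsal neural tube and muscle precursors, had 4.92 ± 0.18, and Pax7, of muscle stem cells and dorsal midbrain, had 5.57 ± 0.12, above the level on array 1 alone. Pax9, a tooth and thymus factor, had 5.70, 5.70 and 5.77, all above the level of their arrays but only 0.10 log2 units over it on average (limma adjusted p = 0.169). Pax1, a sclerotome factor, had 5.67 on every array and Pax4, a pancreas factor, had 5.37 ± 0.18. Neither was called. Of 5 skeletal muscle markers, Myod1 (5.95 ± 0.22) and Myog (5.98 ± 0.30) were called and Myf5, Des and Chrna1 were not, and the part of such cells in the Pax values was not tested.

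Of 13 Nkx genes, 6 (46.2%) were called, against 59.1% of all genes. Nkx2-2, a ventral patterning factor that also acts in oligodendrocyte differentiation, had 10.59, 10.59 and 10.54 (10.57 ± 0.029), 4.95 log2 units above the mean level. Nkx6-2, known in ventral precursors and myelinating oligodendrocytes, had 7.32, 7.33 and 7.33 (7.32 ± 0.0072). Both lay more than 1 log2 unit above the level on each array. Nkx1-1 had 6.44, 6.69 and 6.76 (6.63 ± 0.17), and Nkx2-5, a heart factor, had 6.20, 6.20 and 6.34 (6.24 ± 0.086).

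Nkx6-1, a factor of ventral spinal cord and pancreas, and Nkx6-3, a factor of gut and hindbrain, lay close to the level. Nkx6-1 had 5.81, 5.64 and 5.86 (limma adjusted p = 0.0482), and its call held in only 5 of 12 alternatives. Among those that ended it, limma's adjusted p was 0.336 without replicate 1, 0.112 without replicate 3 and 0.0694 without the intensity trend. Nkx6-3 had 5.74, 5.74 and 6.08 (limma adjusted p = 0.00273). The adjusted p rose to 0.0598 when replicate 1 was left out, to 0.0782 without replicate 3 and to 0.0739 with its own spread, so the call ended in each. Nkx2-1, the selector gene of the medial ganglionic eminence, had 5.69, 5.69 and 5.61. It exceeded the level on arrays 1 and 2, fell short on array 3, and was not called (limma adjusted p = 0.479).

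The 7 Nkx genes not called ran from 5.19 (Nkx2-3, a gut and spleen factor) to 5.69 (Nkx3-2, a skeletal factor). Nkx2-4 and Nkx2-9, close relatives of Nkx2-1 and Nkx2-2, had 5.66, 5.31 and 5.85, and 5.66, 5.31 and 5.80. In both, array 2 was lowest and array 3 highest. Nkx1-2 had 5.53, 5.31 and 5.84 in its brighter probe set and 5.35 on every array in the other, and Nkx2-6 had 5.53 on every array.

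Iroquois genes, which pattern midbrain, hindbrain and diencephalon, were called in 3 of 6 cases (50%), near the 59.1% of all genes. All 3 lay within 1 log2 unit of the level. Irx1 had 6.31 on every array, Irx2 had 6.31, 6.31 and 6.43, and Irx5 had 6.57 on every array. Irx3 had 5.62, 5.62 and 5.65 in its brighter probe set and 4.90 on every array in the other. Irx6 had 5.56, 5.33 and 5.56, and Irx4, known from heart ventricle, had 5.02, 5.02 and 5.39. Irx1 and Irx2 shared the same value to the last deposited digit on arrays 1 and 2, as did other probe sets, since 41345 probe sets held 23211 distinct values on array 1.

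**Figure D2:**
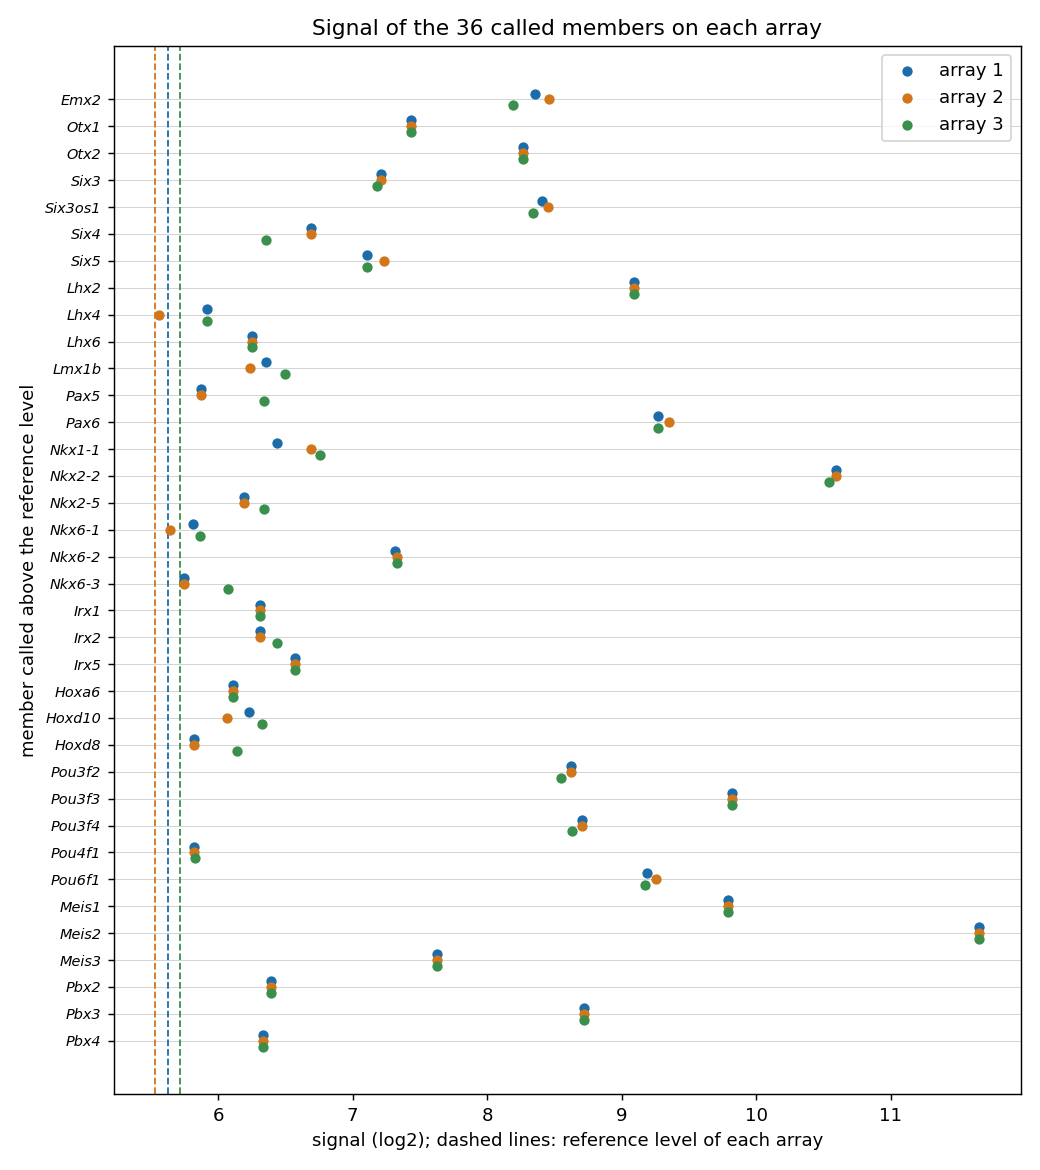
Log2 signal on each of 3 arrays (horizontal axis, points coloured by array) of the 36 members called above the reference level (vertical axis, grouped by family); dashed lines mark the reference level of each array at 5.63, 5.53 and 5.71. Meis2 lies farthest to the right at 11.66 on every array, and Lhx4, Nkx6-1, Nkx6-3 and Pou4f1 lie next to the lines.

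Of the 37 Hox entries, 34 were not called above the reference level. The 3 called were Hoxa6, with 6.11 on every array, Hoxd8, with 5.82, 5.82 and 6.14 (5.93 ± 0.18), and Hoxd10, with 6.23, 6.06 and 6.33 (6.21 ± 0.13). Hoxa6 and Hoxd8 belong to the group of thoracic patterning genes and Hoxd10 to that of lumbar and limb patterning genes. Their distances from the level were 0.48, 0.30 and 0.58 log2 units on average. With the 90th percentile of the receptors as the reference level 13 of 37 Hox entries (35.1%) were called, against 66.7% of all genes. With the 99th percentile 0 of 37 Hox entries were called by limma, also at an unadjusted p under 0.05.

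By cluster, limma called 1 of 9 Hoxa genes, 0 of 10 Hoxb genes, 0 of 9 Hoxc genes and 2 of 9 Hoxd entries, against 59.1% of all genes. The counts for Hoxb and Hoxc were also 0 at an unadjusted p under 0.05 and with each gene's own spread. With the 90th percentile the counts were 3, 4, 2 and 4 for Hoxa, Hoxb, Hoxc and Hoxd, against 66.7% of all genes. In Hoxa, the others ran from 4.48 (Hoxa7) over Hoxa2 (4.71), Hoxa5 (4.72), Hoxa10 (4.73), Hoxa3 (5.01), Hoxa9 (5.07) and Hoxa13 (5.54) to 5.62 (Hoxa4). In Hoxb they ran from 3.94 (Hoxb8) over Hoxb2 (4.60), Hoxb6 (4.69), Hoxb7 (4.79), Hoxb1 (4.97), Hoxb4 (5.07), Hoxb3 (5.40), Hoxb13 (5.40) and Hoxb9 (5.51) to Hoxb5. Hoxb5 had 5.73 on every array in each of its probe sets and exceeded all 3 levels without being called (limma adjusted p = 0.156).

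In Hoxc the signals ran from 3.68 (Hoxc5) over Hoxc9 (4.70), Hoxc11 (4.72), Hoxc4 (4.77), Hoxc6 (4.82), Hoxc8 (5.08), Hoxc10 (5.35) and Hoxc12 (5.62) to Hoxc13. Hoxc13, a hair and nail factor, had 5.72, 5.27 and 5.97, the widest range of any member at 0.70 log2 units, and it was called when replicate 2 was left out. In Hoxd the entries not called were Hoxd9 (4.30), Hoxd11 (4.97), Hoxd13 (5.03), Hoxd3 (5.15), the antisense RNA Hoxd3os1 (5.24), Hoxd1 (5.48) and Hoxd12 (5.52).

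The called Hox genes lay in the middle and posterior paralogue groups. Of the 10 genes of paralogue groups 1 to 4, which are expressed farthest forward in the embryo, 0 were called by limma, also at an unadjusted p under 0.05. It was 2 of 11 for groups 5 to 8 and 1 of 15 for groups 9 to 13. With the 90th percentile of the receptors, Hoxa4, Hoxb3 and Hoxd1 of groups 1 to 4 were called as well. Genes of the other groups were also gained there, such as Hoxb5 and Hoxb9. The median distance from the level was -0.59, -0.84 and -0.28 log2 units in groups 1 to 4, 5 to 8 and 9 to 13. These counts are small and were not tested against each other. Among 31 pairs of Hox entries that are neighbours in the RefSeq annotation of GRCm38.p6, 0 had both genes called, 6 had 1 called and 25 had none. The called Hoxd8 and Hoxd10 flank Hoxd9 at 4.08, 4.28 and 4.53, and Hoxa6 stands between Hoxa5 and Hoxa7.

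**Figure D3:**
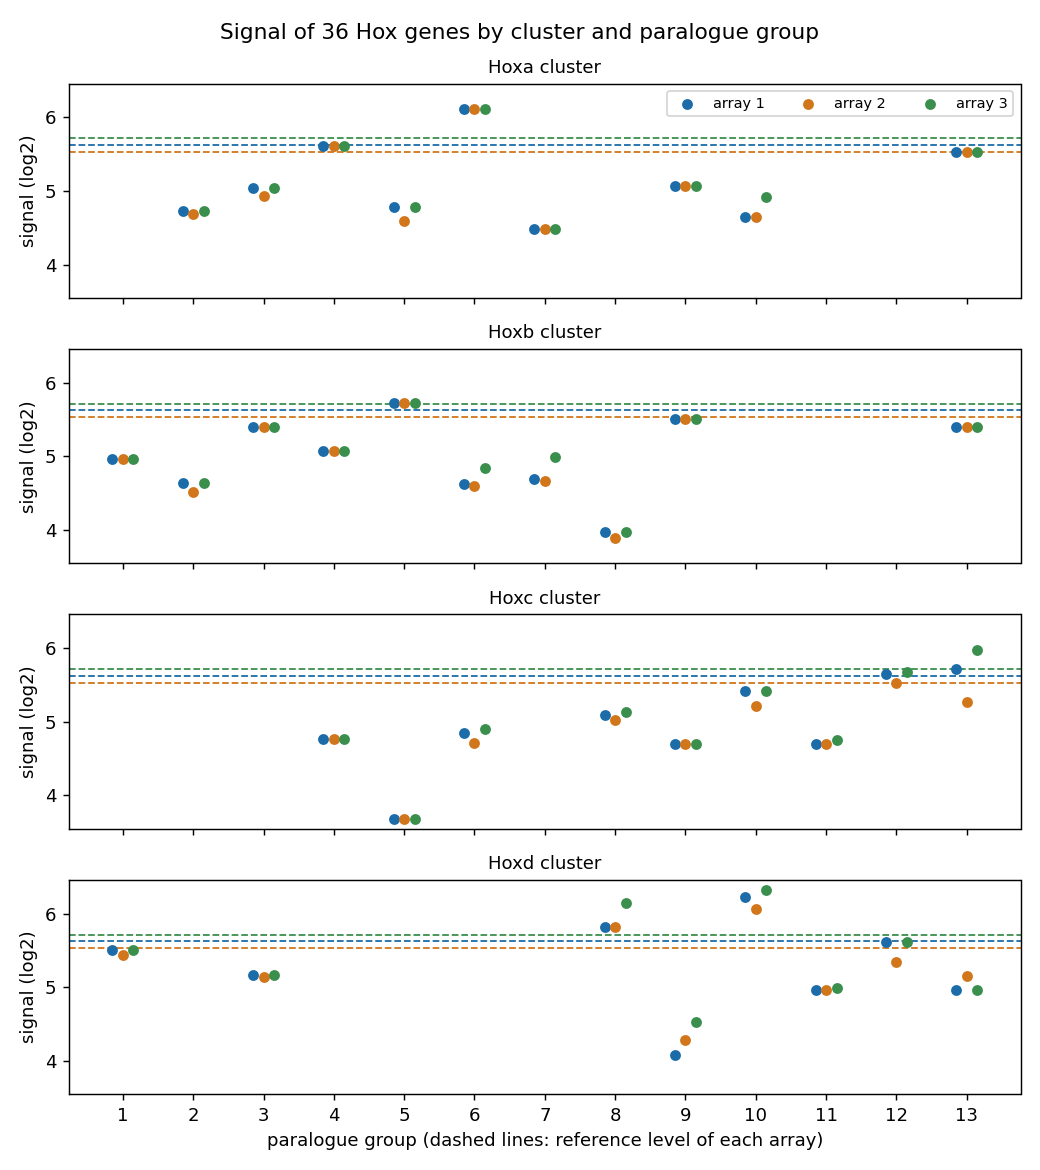
Log2 signal on each of 3 arrays (vertical axis, points coloured by array) of 36 Hox genes, antisense RNA left out, by paralogue group (horizontal axis) with 1 panel for each cluster; dashed lines mark the reference level of each array. Hoxa6, Hoxd8 and Hoxd10 lie above the lines on all arrays, Hoxb5 just above them, and the genes of paralogue groups 1 to 4 near or below them.

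Outside Hox, 11 pairs of members were genomic neighbours. Both genes were called in 2 of them, Irx1 with Irx2 and Six3os1 with Six3. In 7 pairs 1 gene was called, such as Pax6 (9.30) beside Pax6os1 (4.22), Nkx2-2 (10.57) beside Nkx2-4 (5.61) and beside Pax1 (5.67), and Irx5 (6.57) beside Irx3 (5.63) and Irx6 (5.49). In the 2 others, Nkx2-1 with Nkx2-9 and Nkx2-9 with Pax9, neither was called.

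Of the 13 Pou entries, which include the coactivator gene Pou2af1, 5 (38.5%) were called, against 59.1% of all genes. They were 3 of the 4 in the Pou3f subfamily and 2 of the 9 others. Pou3f2, Pou3f3 and Pou3f4 encode the Brn factors of neural precursors and upper-layer neurons. Pou3f2 had 8.62, 8.63 and 8.55 (8.60 ± 0.045), Pou3f3 had 9.82 on every array, and Pou3f4 had 8.71, 8.71 and 8.63 (8.68 ± 0.046). All 3 lay more than 2 log2 units above the level. The fourth member of the subfamily, Pou3f1, a factor of myelinating Schwann cells, had 5.72 on every array and was not called (limma adjusted p = 0.176). Pou6f1, a brain-expressed factor, had 9.18, 9.26 and 9.18 (9.21 ± 0.045).

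Outside Pou3f, Pou6f1 and Pou4f1 were called. Pou4f1, a sensory neuron factor, had 5.82, 5.82 and 5.83 and lay 0.20 log2 units above the level (limma adjusted p = 0.00827). The call ended when replicate 1 (adjusted p = 0.163) or replicate 2 (0.0569) was left out. Pou5f1, the pluripotency factor Oct4, had 5.69, 5.19 and 5.81 (5.57 ± 0.33), above the level on arrays 1 and 3 and below it on array 2, and was not called. The others were Pou5f2 (5.70), Pou2f2 (5.62), Pou4f3 (5.40), the pseudogene Pou5f1-rs4 (4.42) and Pou2f3 (4.22), a factor of tuft cells and skin.

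Meis and Pbx genes, which encode the cofactors of the TALE class, were detected in 6 of 6 cases, against 59.1% of all genes. Meis1 had 9.79, Meis2 had 11.66 and Meis3 had 7.63, each with the same value on every array. Meis2, known in the lateral ganglionic eminence and in olfactory bulb interneurons, lay 6.03 log2 units above the mean level. Pbx3 had 8.72, Pbx2 had 6.39 and Pbx4 had 6.33, again the same on every array. The distances of Pbx2 and Pbx4 were 0.77 and 0.71 log2 units. The SD of 0 follows from equal deposited values and can understate the true error.

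Partner genes of these families were set beside them. All 10 cofactors of LIM proteins were called, such as the bridging factor gene Ldb1 (10.89 ± 0.0061), its relative Ldb2 (9.39), Ssbp2 (11.00), Lmo4 (9.29 ± 0.033) and Rlim (9.35), and the lowest was Lmo2 (6.36). All 6 Eya and Dach genes, partners of sine oculis proteins, were called, from Eya4 (6.38) to Eya3 (9.25), with Eya1 at 9.19. All 5 TALE relatives were called, from Mkx (6.67) to Pknox2 (9.45), with Pknox1 at 7.36 ± 0.24. Of 6 measured Groucho corepressor genes 5 were called, including Tle3 (11.21) and Tle4 (10.72), and Tle2 (5.70) was not. These counts stand against 59.1% of all genes called. The median distances, a description of these probe sets only, were 3.61, 1.83, 1.65 and 4.19 log2 units, against 0.76 over all genes. The arrays hold no other tissue, so the calls of these partners are not shown to be particular to neurospheres.

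Other regional factors were detected in 20 of 36 measured cases (55.6%), close to the 59.1% of all genes. Among them were Cux1 (9.51 ± 0.075) and Cux2 (7.73 ± 0.049), both known in cortical precursors and upper layers, Zic1 (9.14), Zic2 (8.40 ± 0.10) and Zic5 (7.97), which act in dorsal and septal regions, and Nr2f1 (7.69), an areal patterning gene. Vax1 (6.84) and Fezf2 (6.21) were called as well. Called genes and genes not called stood among forebrain factors and among the others. Among factors of midbrain, hindbrain, spinal cord or other tissues, Barhl2 (8.09 ± 0.12) and Dbx2 (8.07) were called. Nearer to the level, En2 (6.16), Cdx2 (6.19), Gbx2 (5.88), Barx1 (5.94), Uncx (5.86), Evx2 (5.85) and Tlx1 (5.82) were called too. En1 (5.32), Gbx1 (4.34), Mnx1 (4.77), Cdx1 (4.88), Lbx1 (4.87) and Tlx3 (5.13) were not called. The forebrain factors Rax (5.64), Hesx1 (4.19) and Fezf1 (5.47) were not called. These genes were picked as examples after their values were seen.

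Equal values on all 3 arrays were deposited for 40 of 107 members (37.4%), against 39.4% of all genes, and the median SD of the members was 0.041 log2 units, against 0.020 over all genes. The median signal of the members was 5.60, 5.47 and 5.62 on arrays 1, 2 and 3. Array 2 held the single lowest value for 37 members (34.6%), against 16.4% of all genes and 24.0% of the receptor genes, and 33 of these 37 were members not called. The reference level itself was lowest on array 2 at 5.53 and highest on array 3 at 5.71, and its part in these shifts was not tested. The planned test of differences between arrays, limma's residual variance against its trended prior, called 0 of 22180 genes, also at an unadjusted p under 0.05. So many deposited values were equal that the test is void and says nothing about the spread of the members.

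**Figure D4:**
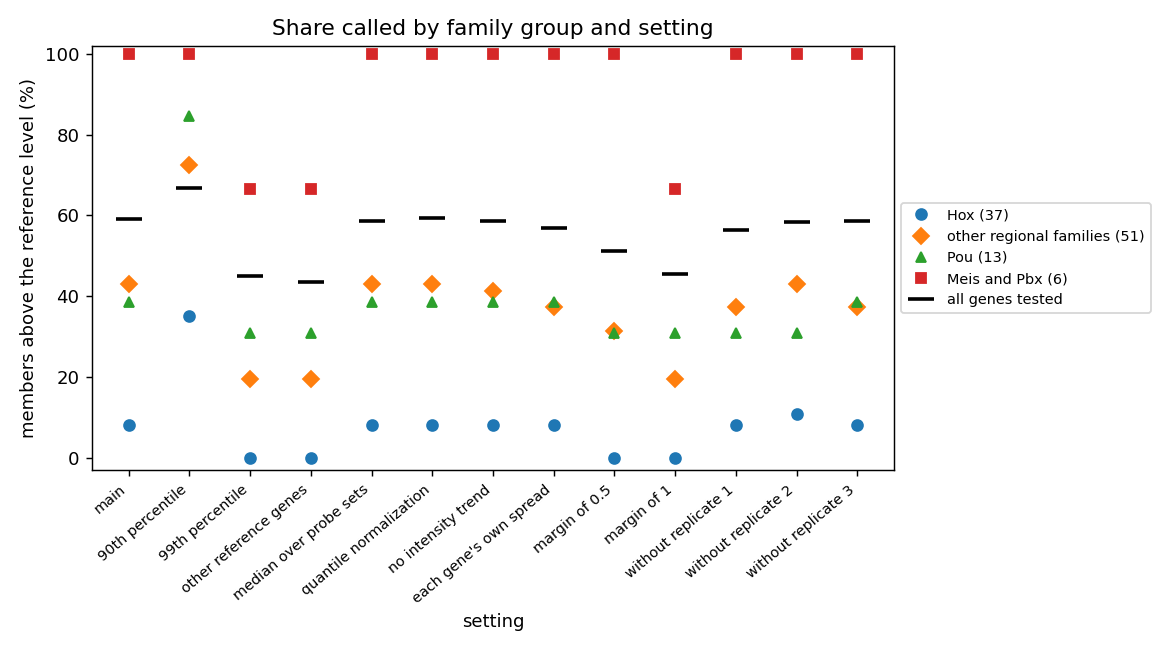
Share of members called above the reference level in percent (vertical axis) under the main setting and 12 alternatives (horizontal axis), with 1 symbol for each group of families and a bar for all genes tested. Meis and Pbx lie above the bar and Hox below it under every setting drawn, while the share of the other regional families moves between 19.6% and 72.5%.

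Under each of the 12 alternatives Meis and Pbx had the largest share called and Hox the smallest of the 4 groups. Of the 36 calls, 18 were made under all 12 alternatives: Emx2, Otx1, Otx2, Six3, Six3os1, Six5, Lhx2, Pax6, Nkx2-2, Nkx6-2, Pou3f2, Pou3f3, Pou3f4, Pou6f1, Meis1, Meis2, Meis3 and Pbx3. The other 18, among them every called Hox and Irx gene, lost the call when the 99th percentile was used. With the 90th percentile, 67 members (62.6%) were called against 66.7% of all genes, so that the share of the members was still the lower one, by less than with the 95th percentile.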

How the data were processed

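The authors deposited log2 signals for 41345 probe sets on 3 arrays. RMA, named in the submitters' processing notes, subtracts background, scales arrays to each other and combines the probes of a probe set. Its version, options and genome build are not given in the sources used here. Platform annotation paired 23521 probe sets with 1 symbol, 1814 with several and 16010 with none, and only the first were used. They gave 22180 genes. A gene with several probe sets took the one with the highest mean, which applied to 3 members.

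The deposited value minus its array's reference level was fitted with limma 3.58.1 in R 4.3.3 (intercept, eBayes with trend), one-sided, with Benjamini-Hochberg adjustment. The prior degrees of freedom were infinite. The reference level was subtracted array by array, so its differences between arrays enter the test. A member with equal values on every array, such as Meis2, had an SD of 0.091 in its distance from the level. The choice of receptors and percentile is not in the test as an error. The number of arrays limits the precision. The steps were tested on simulated data.

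The members and lists were chosen with earlier results of these data known. Named are all members called, all Hox entries, those less than 0.25 log2 units under the level, and the extremes of each family. Alternatives changed the reference percentile (90, 99), the reference genes (142 probe sets of bitter taste receptors, defensins and keratin-associated proteins), the probe set, the scaling, the model, the margin tested against (0.5, 1) and the replicates. Protein sequences were not used here. Promoter windows and gene order come from RefSeq for GRCm38.p6. Figures were drawn with matplotlib 3.10.9.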

Additional observations from a re-analysis of the deposited data

How the results depend on the processing

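The counts depended mainly on the height of the reference level. With the 90th percentile, 67 members were called, 13 of them Hox, 37 of the families from Emx to Irx and 11 Pou genes. With the 99th percentile the counts were 18 for all members, 0 for Hox and 10 for the families from Emx to Irx, and the other reference genes gave 18, 0 and 10 as well. Tested against a margin of 1 log2 unit, limma called 18 members, 0 Hox and 10 of the families from Emx to Irx, and against a margin of 0.5 it called 0 Hox. In each of these cases 0 Hox also passed at an unadjusted p under 0.05. Pou had 4 to 5 calls in every alternative but the 90th percentile, and Meis and Pbx 4 to 6. Leaving out each replicate gave 32 to 36 members, 3 to 4 Hox, 19 to 22 of the families from Emx to Irx, 4 to 5 Pou and 6 Meis and Pbx genes. The median over probe sets and quantile normalization each gave 36 members, no intensity trend 35, and each gene's own spread 33.

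A mean signal fell below the raised level for 15 called members. With the 99th percentile and with the other reference genes the distances were -0.61 and -0.64 for Lhx4, -0.15 and -0.18 for Lhx6, -0.039 and -0.074 for Lmx1b, -0.37 and -0.41 for Pax5, -0.16 and -0.19 for Nkx2-5, -0.63 and -0.66 for Nkx6-1, and -0.55 and -0.58 for Nkx6-3. They were -0.092 and -0.13 for Irx1, -0.050 and -0.086 for Irx2, -0.29 and -0.33 for Hoxa6, -0.19 and -0.23 for Hoxd10, and -0.47 and -0.51 for Hoxd8. For Pou4f1 they were -0.58 and -0.61, for Pbx2 -0.0097 and -0.045, and for Pbx4 -0.069 and -0.10. Six4, Nkx1-1 and Irx5 stayed above these levels without being called. The raised level itself gives the shift. The void test of differences between arrays also gave 0 members with the median over probe sets, quantile normalization, no intensity trend and an unadjusted p under 0.05, and the other alternatives were not run for it. Of 71 members not called, 40 were not called under any alternative. No paired analysis was possible because the arrays form 1 group. Signals close to that of the receptors cannot be told from unspecific binding, so a member not called is not shown to be absent.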
